A study of Mus musculus with 72 samples.

Results

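Livers of DBA/2J males were compared with livers of DBA/2J females, all on the Low Protein diet, by RNA sequencing of 6 animals of each sex. These are 12 of the 72 libraries of the study, and were chosen by the strain, sex and diet in their labels. Of 19362 genes that passed a filter on low counts, 18738 lie on autosomes and are described here. The whole study has 12 groups of 6 mice, males and females of DBA/2J and C57BL/6J given food named Control, Medium Protein or Low Protein. Every mouse went on its diet at 10 weeks of age, stayed on it for 13 weeks and was killed at 23 weeks after 16 h without food, in housing at about 22 °C. The Low Protein DBA/2J sexes were also set against the DBA/2J sexes on Control and on Medium Protein, and against C57BL/6J males and females on Low Protein. The labels of these inbred mice name no transgene and no drug. Besides diet, sex and strain, they hold animal numbers and position-like codes, and the codes run with the groups.

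The mouse liver is one of the most sex-dimorphic tissues outside the gonads. In males the pituitary releases growth hormone in pulses, with long gaps between them, while in females the hormone is present almost continuously. The receptor signals through JAK2 to the transcription factor STAT5B, and BCL6 in males and CUX2 in females act as repressors downstream. The genes set by this pattern include major urinary proteins, cytochrome P450 enzymes that hydroxylate steroids and drugs, and sulfotransferases that conjugate steroids.

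The 12 libraries held 30.3 to 33.5 M expected counts in males and 28 to 37.8 M in females. Sex-linked transcripts fitted the labels: Xist stood at 0.507 to 1.95 CPM (counts per 1e+06 counts, normalised between libraries by edgeR's TMM) in males and at 1682 to 1996 CPM in females, and Ddx3y at 78.6 to 90.8 CPM in males and at 0 in all 6 females. Hepatocyte transcripts were abundant in both sexes, the summed level of 10 of them being 71316 to 88661 CPM in males and 80440 to 95491 CPM in females. More genes had a count in females, 23542 to 24686, than in males, 22479 to 23479, with no overlap. No library of the 12 exceeded 5% ribosomal-like counts, while 1 male at 2.41% and 1 female at 2.11% exceeded 2%. Codes in the labels that read like plate positions run together within each sex, so position and sex cannot be told apart, and no label names a batch. The animal numbers of DBA/2J females also form a series apart from that of DBA/2J males, so number series and sex cannot be told apart either. A library outside the 12, DBA/2J female Medium Protein replicate 6, went against its label in part: it held Ddx3y at 2.74 CPM and the male transcript Cyp4a12a at 10.1 CPM, against at most 0.35 CPM in the other 5 females of its group. It enters the shared fit, which gave 3453 sex-different genes on Low Protein without it, against 3505 with it, and the Medium Protein results are given with and without it.

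The 3 genes with the largest differences in each direction that had an entry in the RefSeq promoter table (build GRCm38.p6) are shown by the 250 bases before their start, 5′ to 3′ on the gene's own strand, since these stretches lie beside the genes with the largest fitted fold changes. Capitals mark TTCNNNGAA, the letters of a STAT5 motif, which reads the same on both strands.
Moxd1 (chr10:24223267-24223516, plus strand): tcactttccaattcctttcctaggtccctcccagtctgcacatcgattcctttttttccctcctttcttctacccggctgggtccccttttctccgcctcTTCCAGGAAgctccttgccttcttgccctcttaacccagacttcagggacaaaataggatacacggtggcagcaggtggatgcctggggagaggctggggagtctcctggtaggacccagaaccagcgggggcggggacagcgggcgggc
Mup15 (chr4:61439705-61439954, minus strand): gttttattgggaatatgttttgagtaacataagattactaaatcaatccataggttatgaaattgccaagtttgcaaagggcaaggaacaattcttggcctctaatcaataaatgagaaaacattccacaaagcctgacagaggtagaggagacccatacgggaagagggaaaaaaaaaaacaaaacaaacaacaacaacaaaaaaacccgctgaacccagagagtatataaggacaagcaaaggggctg
Mup7 (chr4:60070476-60070725, minus strand): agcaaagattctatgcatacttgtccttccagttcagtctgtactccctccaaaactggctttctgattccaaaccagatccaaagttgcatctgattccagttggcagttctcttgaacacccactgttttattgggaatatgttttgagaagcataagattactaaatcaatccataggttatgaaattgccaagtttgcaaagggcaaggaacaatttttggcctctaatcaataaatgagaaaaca
Sult3a2 (chr10:33782116-33782365, minus strand): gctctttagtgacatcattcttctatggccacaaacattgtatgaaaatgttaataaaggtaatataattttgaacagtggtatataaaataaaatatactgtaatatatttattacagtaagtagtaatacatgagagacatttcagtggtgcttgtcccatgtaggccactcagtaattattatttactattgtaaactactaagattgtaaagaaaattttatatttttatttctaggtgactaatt
Cyp3a41b (chr5:145584731-145584980, minus strand): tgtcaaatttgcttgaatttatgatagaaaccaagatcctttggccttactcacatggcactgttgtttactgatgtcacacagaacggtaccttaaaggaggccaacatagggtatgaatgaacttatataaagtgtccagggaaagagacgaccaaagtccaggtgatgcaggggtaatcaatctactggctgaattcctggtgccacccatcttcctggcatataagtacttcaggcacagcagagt
Sult3a1 (chr10:33857472-33857721, plus strand): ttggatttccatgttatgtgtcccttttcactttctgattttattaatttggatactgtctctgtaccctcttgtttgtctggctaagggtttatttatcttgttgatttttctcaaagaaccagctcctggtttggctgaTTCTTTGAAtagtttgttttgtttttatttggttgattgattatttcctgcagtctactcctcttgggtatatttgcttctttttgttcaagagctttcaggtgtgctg
The motif occurred in the Moxd1 and Sult3a1 stretches and in none of the other 4. It occurred in 1 of the 7 genes with an entry among the 12 highest fold changes and in 1 of the 10 with an entry among the 12 lowest. Of all entries, 8.13% of 27025 gene symbols, and 7.02% of 32851 windows, held it in the 250 bases before the start. Mup15 and Mup7, 2 major urinary protein genes of chromosome 4, shared an unbroken run of 66 bases, while every other pair of the 6 shared 7 to 10 bases.

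Between the sexes 3505 autosomal genes differed (18.7% of those tested; edgeR's quasi-likelihood test, adjusted p below 0.05 over all genes). Of these, 2029 were higher in males (10.8%) and 1476 were lower in males (7.88%). Most differences were small, since 1177 of the higher and 717 of the lower genes changed by less than 1.5-fold. At least 8-fold differences were seen in 100 genes higher and 89 lower in males, and at least 32-fold in 26 higher and 45 lower. Every male lay above every female for 921 genes (4.92%) and below every female for 628 (3.35%), so that the groups stood apart for 1549 genes (8.27%). With counts scaled by library totals the median autosomal gene shifted by -0.17 on the log2 scale and the split became 871 higher and 3692 lower, so the direction of small differences is relative to the TMM scaling. All log2 differences below are male minus female, with their standard error, on the TMM scale. Counts of called list members below are to be read beside the shares over all autosomal genes, 10.8% higher and 7.88% lower.

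**Figure D1:**
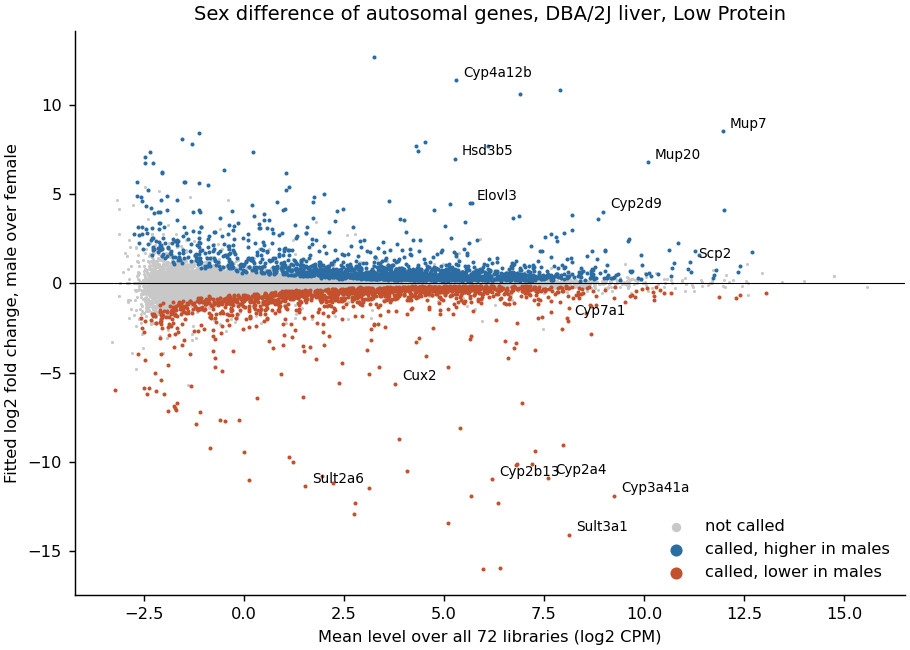
Each point is an autosomal gene of the Low Protein DBA/2J livers, placed by its mean log2 CPM (x axis) and its log2 difference, male minus female (y axis), with called genes in colour. Called differences reach beyond 8-fold in both directions, in 100 genes higher and 89 lower in males, while most called genes lie near 0.

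The genes furthest up in males were urinary proteins, a fatty acid hydroxylase pair and a steroid enzyme. Cyp4a12a, a male-specific omega-hydroxylase of arachidonic acid, had a lowest, median and highest level of 299, 355 and 395 CPM in males and of 0, 0.182 and 0.579 CPM in females (10.61 ± 0.75, adjusted p = 1.5e-18). Its near-identical neighbour Cyp4a12b stood at 46.3, 72.2 and 104 CPM in males and 0, 0.012 and 0.061 CPM in females (11.38 ± 0.70, adjusted p = 2.3e-21). The groups were far apart for both, although reads of these 2 copies can be shared out wrongly between them. Moxd1, a monooxygenase-like protein related to dopamine beta-hydroxylase, was at 0 in all 6 females. In males it stood at 0.404, 1.38, 0.126, 0.561, 81.8 and 68.7 CPM, a level at least 1799-fold higher (against 3 counts over the 6 females). A pair of males far above the other 4 carried most of these counts, and with limma-voom the call was lost (adjusted p = 0.35). Hsd3b5, a male-specific 3-ketosteroid reductase, had 70.7, 104 and 154 CPM in males and 0.158, 0.773 and 1.7 CPM in females (6.98 ± 0.52, adjusted p = 8.4e-18). Ugt2b38, a glucuronosyltransferase, had 1.72, 3.42 and 7.67 CPM in males and 0, 0.0359 and 0.122 CPM in females (6.18 ± 0.78, adjusted p = 4.7e-09). Male and female values did not meet for either enzyme. Susd4, a complement regulator, differed by 4.61, and Serpina4-ps1, a pseudogene of the kallistatin locus, by 4.46 on the log2 scale. A pair of low transcripts completed the top of the ranking. Gvin1, an interferon-induced GTPase, had 4.71, 0, 0, 0, 0 and 0.913 CPM in the 6 males and 0 in all females, and its call was lost without male replicate 1 (adjusted p = 0.074) and with limma-voom (adjusted p = 0.41). Tff3, a secreted trefoil peptide, had 0.066, 0.517 and 1.36 CPM in males and 0 in all females, at least 44.7-fold higher, with an adjusted p of 0.060 by limma-voom.

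The genes furthest down in males were sulfotransferases and Cyp3a and Cyp2 enzymes. Sult3a1, which sulfonates amines, had 0, 0.0484 and 0.165 CPM in males and 912, 1125 and 1268 CPM in females (-14.08 ± 0.66, adjusted p = 1.5e-27). Its neighbour Sult3a2 was at 0 in all 6 males and at 178, 268 and 300.3 CPM in females, at least 15349-fold lower in males. The Sult2a genes, which sulfonate hydroxysteroids and bile acids, were close to absent in males. Sult2a1 had 0, 0.0158 and 0.0676 CPM in males and 29.4, 118 and 226 CPM in females (-12.31 ± 0.98, adjusted p = 8.3e-16). Sult2a2, Sult2a3, Sult2a5 and Sult2a6 had no count in any male, and were at least 2478-fold, 637-fold, 1159.7-fold and 606-fold lower in males. These copies resemble each other closely, so the split among them is uncertain, and limma-voom did not call Sult2a3 (adjusted p = 0.26). Cyp3a41a, a female-specific steroid hydroxylase, had 0.169, 0.338 and 0.574 CPM in males and 1175, 1227 and 1623 CPM in females (-11.91 ± 0.57, adjusted p = 7.3e-27). Its near-copy Cyp3a41b was at 0 in all males and at 150.5, 253 and 324 CPM in females, at least 15123-fold lower in males. Cyp3a16, of the same cluster, had 0, 0 and 0.101 CPM in males and 120.2, 138 and 162 CPM in females (-11.90 ± 0.81, adjusted p = 2.8e-19). No male reached the lowest female for any of these genes. Cyp2b13 differed by -10.97, and Cyp2a4, a testosterone 15-alpha-hydroxylase, by -10.90 on the log2 scale. Cyp2c40, an arachidonic acid hydroxylase, had 0.101, 0.25 and 1.1 CPM in males and 366, 385 and 513 CPM in females (-10.13 ± 0.53, adjusted p = 7.8e-25).

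**Figure D2:**
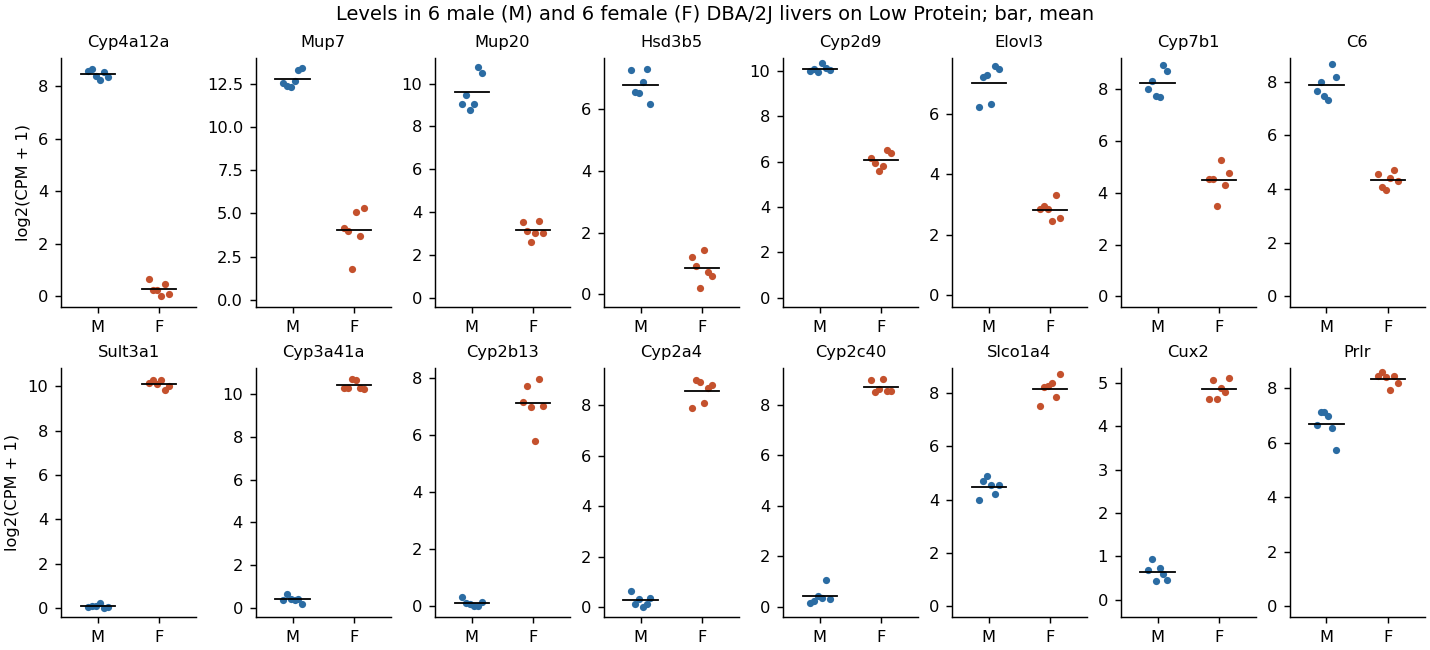
Levels of 16 genes in each of the 12 Low Protein DBA/2J livers, as log2(CPM + 1), with males left of females in each panel, a point per animal and a bar at the mean. The first 8 panels are genes higher in males and the last 8 genes lower in males, and male and female points do not overlap in any of them.

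Among 31 tested genes of growth hormone signalling and sex-dependent transcription, 2 were higher and 6 lower in males, with a median log2 difference of 0.04. With library totals the counts became 0 and 7. Cux2, the female-predominant repressor, had 0.347, 0.562 and 0.911 CPM in males and 23.8, 27.6 and 33.5 CPM in females (-5.63 ± 0.68, adjusted p = 1.5e-09). Tox, a transcription factor with an HMG box, had 2.01, 3.1 and 3.54 CPM in males and 12.5, 16.9 and 19.1 CPM in females (-2.46 ± 0.19, adjusted p = 9.6e-17). Trim24, a coregulator of nuclear receptors, had 21.1, 25.2 and 42.3 CPM in males and 70.1, 80.7 and 104 CPM in females (-1.56 ± 0.17, adjusted p = 7.1e-11). All 3 showed no overlap between the sexes. Prlr, the prolactin receptor, had 51.9, 114 and 140.5 CPM in males and 248, 346 and 388 CPM in females (-1.60 ± 0.19, adjusted p = 4.4e-10). Esr1, the oestrogen receptor, was lower in males by a smaller amount (-0.72 ± 0.15, adjusted p = 0.00033), as was Nr1i3, the nuclear receptor CAR (-0.53 ± 0.17, adjusted p = 0.022, not called in 2 of 12 fits that left out 1 library, adjusted p up to 0.086). Higher in males were Igfals, the carrier subunit of circulating IGF1 (0.58 ± 0.16, adjusted p = 0.0064), and Ghr, the growth hormone receptor, with 332, 398 and 472 CPM in males and 183, 281 and 382 CPM in females (0.47 ± 0.14, adjusted p = 0.012). The groups overlapped for Ghr, and its call was lost without female replicate 4 (adjusted p = 0.064), in a fit of the compared groups alone (adjusted p = 0.050) and with library totals (adjusted p = 0.12). Stat5b had 34.3, 45.9 and 49.3 CPM in males and 38.7, 41.9 and 44.7 CPM in females (adjusted p = 0.63), and Igf1 had 499.8, 609 and 655 CPM in males and 524, 570.0 and 619 CPM in females (adjusted p = 0.86). Bcl6, the male-predominant repressor, had 7.09, 33.8 and 49.3 CPM in males and 12, 25.2 and 43.8 CPM in females and did not pass the test (0.25 ± 0.51, adjusted p = 0.79). The groups overlapped for all 3.

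Of 58 tested genes listed as male-biased in liver, 47 were higher and 3 lower in males, with a median log2 difference of 2.57 against 0 over all autosomal genes. Of 73 listed as female-biased, 54 were lower and 6 higher in males, with a median of -2.46. Both lists were drawn up with knowledge of this field and of earlier results from these data, so they are no independent evidence of direction. Cyp2d9, a testosterone 16-alpha-hydroxylase, had 1003, 1075 and 1295 CPM in males and 47.1, 65.6 and 91.5 CPM in females (4.03 ± 0.27, adjusted p = 8.6e-20). Cyp7b1, the oxysterol 7-alpha-hydroxylase, had 207, 284 and 483 CPM in males and 10.1, 22 and 37 CPM in females (3.78 ± 0.36, adjusted p = 4.3e-13). Every male was above every female for both. The 3 listed as male-biased that were lower in males were Lepr, the leptin receptor (-3.62 ± 0.46, adjusted p = 4.3e-09), the glucuronosyltransferase Ugt2b37 (-2.29 ± 0.49, adjusted p = 0.00032) and the retinol dehydrogenase Dhrs9. Lepr had 6.66, 9.33 and 28.3 CPM in males and 38.5, 141 and 299 CPM in females, without overlap. Dhrs9 (-1.56 ± 0.49, adjusted p = 0.017) lost its call in 1 of the 12 fits that left out 1 library (adjusted p = 0.064).

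The major urinary proteins are small lipocalins that the liver secretes and the kidney passes into urine, where they bind pheromones. All Mup genes together held 3.57 to 7.45% of the counts of a male library and 0.301 to 1.23% of a female library. Of 21 tested members, 19 were higher in males and none was lower, under TMM and library totals alike, with a median log2 difference of 2.77. Mup7 had 5066, 6157 and 10764 CPM in males and 2.52, 15.9 and 39.3 CPM in females (8.51 ± 0.81, adjusted p = 3.1e-13). Mup20, the pheromone darcin, had 439.7, 617 and 1754 CPM in males and 5.14, 7.54 and 11 CPM in females (6.78 ± 0.51, adjusted p = 1.6e-17). Mup21 had 95.4, 223 and 333 CPM in males and 0.756, 1 and 1.52 CPM in females (7.72 ± 0.43, adjusted p = 7.7e-24). The ranges stood well apart for all 3. Mup3 differed by 2.26, Mup18 by 7.42 and Mup15 by 10.82 on the log2 scale, the last without a call by limma-voom (adjusted p = 0.091). The 2 members without a call were Mup11, with 8.71, 37.8 and 59.4 CPM in males and 2.07, 15.4 and 34.5 CPM in females (1.09 ± 0.61, adjusted p = 0.22), and Mup12, with 2.72, 4.41 and 8.86 CPM in males and 0.375, 0.832 and 1.86 CPM in females (2.51 ± 0.96, adjusted p = 0.056). The sexes did not overlap for Mup12, and it was called in a fit of the compared groups alone (adjusted p = 0.00033), by DESeq2 (0.021), and without libraries over 5% or over 2% ribosomal-like counts (0.00019 and 0.0022). Most Mup genes are near-identical, so the share of reads given to each copy is uncertain.

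Cytochrome P450 genes were split by family. In the Cyp2 family 12 of 38 members were higher and 12 lower in males, and in the Cyp3 and Cyp4 families 3 of 21 were higher and 12 lower, with medians of 0.09 and -0.68. With library totals the counts were 9 and 14 in Cyp2 and 3 and 14 in Cyp3 and Cyp4. The 3 higher members were Cyp4a12a, Cyp4a12b and Cyp4v3, an omega-hydroxylase of fatty acids (0.99 ± 0.12, adjusted p = 6.6e-10). Cyp3a44 had 0.264, 0.61 and 2.59 CPM in males and 526, 589.5 and 648 CPM in females (-9.40 ± 0.62, adjusted p = 5.4e-20), with a wide gap between the sexes. Among 56 conjugating enzymes 11 were higher and 20 lower in males. Gstp1, a glutathione transferase, had 295, 503 and 838 CPM in males and 66, 69.1 and 79.5 CPM in females (2.98 ± 0.22, adjusted p = 1.6e-17). Its values did not meet either, though Gstp1 has near-copies that can take its reads.

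Of 30 steroid enzymes, 9 were higher and 6 lower in males, and of 27 genes of bile acid synthesis and handling, 8 were higher and 5 lower (5 and 7 with library totals). Cyp7a1, which sets the pace of bile acid synthesis, had 54, 155 and 299 CPM in males and 399.7, 595 and 797 CPM in females (-1.95 ± 0.46, adjusted p = 0.0011). Cyp39a1, which hydroxylates 24-hydroxycholesterol, had 0.528, 1.71 and 4.09 CPM in males and 17.6, 28.2 and 52.6 CPM in females (-4.08 ± 0.33, adjusted p = 2.7e-16). No male reached a female level for either, in contrast to Cyp7b1 above. The other 3 lower members were Klb, the FGF coreceptor (-0.58 ± 0.10, adjusted p = 8.2e-06), Nr5a2, a nuclear receptor that activates Cyp7a1 (-0.41 ± 0.06, adjusted p = 2.7e-07), and Akr1d1, the 5-beta-reductase (-0.55 ± 0.19, adjusted p = 0.037, lost in 6 of 12 fits without 1 library, adjusted p up to 0.14). Higher in males was Hsd3b2 (3.44 ± 0.29, adjusted p = 3e-15), of the Hsd3b cluster. Scp2, which carries sterols and has a peroxisomal thiolase form, had 3404, 3559 and 3907 CPM in males and 1342, 1575 and 1858 CPM in females (1.22 ± 0.08, adjusted p = 2.1e-19).

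Transporters showed differences in both directions, 11 of 48 being higher and 13 lower in males (8 and 17 with library totals). Abcg2, an efflux pump for urate and sulfated steroids, had 74.9, 91.3 and 112 CPM in males and 15.3, 16.2 and 20.5 CPM in females (2.45 ± 0.13, adjusted p = 6e-25). Slc17a8, a vesicular glutamate transporter, had 61, 91.1 and 110.3 CPM in males and 5.52, 9.59 and 14.6 CPM in females (3.22 ± 0.31, adjusted p = 3e-13). Slco1a4, an uptake transporter of organic anions, had 15, 22.3 and 28.7 CPM in males and 180.0, 303 and 412 CPM in females (-3.75 ± 0.30, adjusted p = 1.8e-16). Slc22a26, of the organic anion family, had 0.0676, 0.421 and 0.561 CPM in males and 81.6, 97.4 and 108 CPM in females (-8.09 ± 0.41, adjusted p = 2e-25). Each of the 4 divided the sexes without overlap.

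In lipid metabolism, 10 of 27 genes of fatty acid and triglyceride synthesis were higher and 2 lower in males (4 and 4 with library totals), and 14 of 40 genes of fatty acid oxidation were higher and 5 lower (9 and 6). Elovl3, an elongase of very long chain fatty acids, had 74.6, 154 and 194 CPM in males and 4.47, 6.17 and 8.9 CPM in females (4.49 ± 0.43, adjusted p = 4.2e-13). Gpam, the first acyltransferase of glycerolipid synthesis (0.62 ± 0.10, adjusted p = 9.4e-07), Acly, which makes cytosolic acetyl-CoA (0.43 ± 0.11, adjusted p = 0.0021), and Slc25a1, the mitochondrial citrate carrier (0.64 ± 0.10, adjusted p = 1.5e-06), were higher in males without overlap. Scd1, the stearoyl-CoA desaturase, had 732, 2298 and 6469 CPM in males and 506, 651 and 1881 CPM in females (1.57 ± 0.48, adjusted p = 0.015), with overlap, and lost its call without male replicate 1 (adjusted p = 0.11). The 2 lower members, Dgat1 (-0.22 ± 0.07, adjusted p = 0.024) and Fads1 (-0.33 ± 0.12, adjusted p = 0.047), lost their calls in 4 and 10 of the 12 fits that left out 1 library, with adjusted p up to 0.095 and 0.14. Amacr, a peroxisomal racemase (0.60 ± 0.07, adjusted p = 4.6e-11), and Plin2, a lipid droplet coat protein, were also higher in males. Plin2 had 572, 743 and 919 CPM in males and 255, 329 and 482 CPM in females (1.05 ± 0.18, adjusted p = 1e-05). Neither gene overlapped between the sexes. The 5 lower members were the acyl-CoA thioesterases Acot3 (-2.22 ± 0.48, adjusted p = 0.00033) and Acot4 (-0.75 ± 0.25, adjusted p = 0.024), the omega-hydroxylases Cyp4a31 (-1.31 ± 0.30, adjusted p = 0.00087) and Cyp4a14 (-0.79 ± 0.21, adjusted p = 0.0037), and the dehydrogenase Acadl (-0.38 ± 0.09, adjusted p = 0.0008). Acot4 was not called in 4 of the 12 fits without 1 library (adjusted p up to 0.075).

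The cholesterol and lipoprotein counts are to be read beside the shares over all autosomal genes, 10.8% higher and 7.88% lower in males. Of 23 genes of cholesterol synthesis, 2 were higher in males, Mvk (0.79 ± 0.23, adjusted p = 0.008) and Cyp51 (0.96 ± 0.35, adjusted p = 0.043), and none was lower, with a median of 0.33. Cyp51 lost its call in 7 of the 12 fits that left out 1 library (adjusted p up to 0.13), and with library totals 1 gene was called. Of 29 lipoprotein genes, 3 were higher and 4 lower (1 and 9 with library totals). Apoe had 4444, 5369 and 7526 CPM in males and 3004, 3530.5 and 4076 CPM in females (0.66 ± 0.11, adjusted p = 1.8e-06), with no overlap. Vldlr, the VLDL receptor, had 0.169, 0.701 and 2.4 CPM in males and 2.99, 9.2 and 14.9 CPM in females (-3.20 ± 0.43, adjusted p = 2.1e-08), without overlap. Apom, a carrier of sphingosine-1-phosphate (-0.79 ± 0.11, adjusted p = 2.2e-07), and Lcat, which esterifies cholesterol in plasma (-0.26 ± 0.06, adjusted p = 0.00042), were lower in males. Lipc, hepatic lipase (-0.34 ± 0.13, adjusted p = 0.049, lost in 8 of 12 fits, adjusted p up to 0.12), and on the higher side Apoa1 (0.47 ± 0.16, adjusted p = 0.025, lost in 3, up to 0.082) and Apoc2 (0.34 ± 0.12, adjusted p = 0.036, lost in 8, up to 0.11) lost their calls without some single libraries.

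The urea cycle enzymes, which dispose of nitrogen from amino acids, were lower in males in 5 of 9 genes and higher in none, with a median of -0.48 (5 and 0 with library totals). Asl, which splits argininosuccinate, had 168, 186 and 284 CPM in males and 225, 496 and 784 CPM in females (-1.20 ± 0.25, adjusted p = 0.00015). Ass1, the argininosuccinate synthase, had 609, 777 and 1156 CPM in males and 827, 1549.7 and 2599 CPM in females (-0.94 ± 0.21, adjusted p = 0.00064). Cps1, which makes carbamoyl phosphate, had 2738, 3841 and 5383 CPM in males and 4203, 6706 and 9733 CPM in females (-0.81 ± 0.18, adjusted p = 0.0005). The sexes overlapped at the edges of their ranges for each of the 3. Arg1, arginase (-0.71 ± 0.17, adjusted p = 0.0015), and Slc25a15, the mitochondrial ornithine carrier (-0.48 ± 0.11, adjusted p = 0.0013), were also lower. Nags, which makes the activator of CPS1, had 31.6, 32.9 and 39.1 CPM in males and 27, 33.4 and 41.8 CPM in females (adjusted p = 0.85).

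Of 54 genes of amino acid breakdown, 10 were higher and 11 lower in males (5 and 21 with library totals). Got1, the cytosolic aspartate aminotransferase, had 57.4, 107 and 174 CPM in males and 254, 444 and 819 CPM in females (-2.08 ± 0.33, adjusted p = 1.8e-06). Haao, Kmo and Aadat, enzymes of tryptophan breakdown, were higher in males. Haao had 185, 212 and 259 CPM in males and 93.3, 106 and 120.2 CPM in females (1.05 ± 0.11, adjusted p = 4.3e-11), Kmo differed by 0.46 and Aadat by 0.71 on the log2 scale. Male and female values did not meet for Got1, Haao, Kmo or Aadat. Of 28 genes of serine and one-carbon metabolism, 3 were higher, Shmt2 (0.61 ± 0.12, adjusted p = 5.5e-05), Dmgdh and Mthfd2, and 6 were lower. Dmgdh (0.33 ± 0.12, adjusted p = 0.04) and Mthfd2 (0.99 ± 0.36, adjusted p = 0.046) lost their calls in 6 and 8 of the 12 fits without 1 library (adjusted p up to 0.18 and 0.15). Cth, which makes cysteine from cystathionine, had 185, 261 and 388 CPM in males and 372, 596 and 1033 CPM in females (-1.26 ± 0.21, adjusted p = 7.5e-06). Mat1a, the liver's S-adenosylmethionine synthase, had 3067, 3903 and 6072 CPM in males and 5090.0, 6506 and 8275 CPM in females (-0.67 ± 0.16, adjusted p = 0.00096). Both ranges overlapped between the sexes.

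Fgf21, a hormone that the liver releases on protein restriction, had 13.2, 33.4 and 47.2 CPM in males and 5.36, 10.1 and 18.6 CPM in females (1.64 ± 0.39, adjusted p = 0.0014), with overlap. Of 34 genes that ATF4, which amino acid shortage induces, is known to activate, 12 were higher and 5 lower in males, with a median of 0.19 (4 and 5 with library totals). Sars, the seryl-tRNA synthetase, had 30.8, 37.2 and 40.3 CPM in males and 24.4, 25.5 and 27.8 CPM in females (0.48 ± 0.08, adjusted p = 2.2e-06), without overlap. The 5 lower were Vldlr, Cth, the amino acid transporter pair Slc7a5 (-0.82 ± 0.20, adjusted p = 0.0022) and Slc3a2 (-0.44 ± 0.09, adjusted p = 8.7e-05), and Cbs (-0.43 ± 0.12, adjusted p = 0.0054). Of 30 genes under NRF2 or of antioxidant defence, 8 were higher and 4 lower (5 and 6 with library totals). Catalase, Cat, had 1862, 2158 and 2289 CPM in males and 1026, 1163 and 1421 CPM in females (0.83 ± 0.09, adjusted p = 1.8e-10), and Taldo1, of the pentose phosphate pathway, differed by 0.60 on the log2 scale. The 4 lower were Nqo1 (-1.39 ± 0.20, adjusted p = 2.2e-07), Cbr1 (-1.34 ± 0.14, adjusted p = 1.3e-11) and the efflux pumps Abcc4 (-1.03 ± 0.19, adjusted p = 4.7e-05) and Abcc3 (-0.69 ± 0.21, adjusted p = 0.012, adjusted p = 0.054 without male replicate 6). Of 13 carboxylesterases, 6 were higher and 4 lower in males. Ces3a had 1488, 1622 and 1971 CPM in males and 325, 567 and 728 CPM in females (1.56 ± 0.18, adjusted p = 1.7e-10), and Ces2c differed by 1.98 on the log2 scale. Ces1b (-0.75 ± 0.14, adjusted p = 6e-05), Ces1c (-0.57 ± 0.11, adjusted p = 5.5e-05), Ces2a (-0.46 ± 0.13, adjusted p = 0.0062) and Ces1g (-0.64 ± 0.23, adjusted p = 0.042, lost in 8 of 12 fits, adjusted p up to 0.13) were lower.

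Of 50 complement and acute phase genes, 12 were higher and 8 lower in males (7 and 13 with library totals). Every male lay above every female for 7 of the 50 and below every female for 8, against 4.92% and 3.35% of all autosomal genes. The complement genes named next are all from the higher side. C6, of the membrane attack complex, had 157, 226 and 399.5 CPM in males and 14.7, 19.3 and 25 CPM in females (3.66 ± 0.25, adjusted p = 3.8e-19). C9 had 222, 299 and 462 CPM in males and 68.1, 88.3 and 127 CPM in females (1.79 ± 0.27, adjusted p = 6.3e-07). C8b differed by 1.82 and C4a, the sex-limited protein whose near-copy is C4b, by 2.60 on the log2 scale. No male fell within the female range for any of these 4. Of 23 serpins, 7 were higher and 1, antithrombin Serpinc1 (-0.21 ± 0.06, adjusted p = 0.0058), was lower (4 and 5 with library totals). Serpina12, vaspin, had 76, 161 and 229 CPM in males and 16.4, 25.8 and 48.5 CPM in females (2.53 ± 0.38, adjusted p = 4.2e-07), and Serpine2 differed by 3.65 on the log2 scale.

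Over all autosomal genes 10.8% were higher and 7.88% lower in males, beside which the iron, glucose and circadian counts are to be read. Of 24 iron and metal genes, 3 were higher and 2 lower (1 and 5 with library totals). Hamp2, a hepcidin paralogue, had 106, 149.8 and 335 CPM in males and 350.1, 652 and 812 CPM in females (-1.87 ± 0.40, adjusted p = 0.00027), and Hamp, the iron hormone hepcidin, had 43.6, 97.2 and 158 CPM in males and 182, 197 and 259.8 CPM in females (-1.16 ± 0.28, adjusted p = 0.0014). Neither overlapped, and the 2 paralogues are similar in sequence. Ftl1, ferritin light chain (0.52 ± 0.12, adjusted p = 0.001), Slc39a4, a zinc importer (0.64 ± 0.19, adjusted p = 0.01), and Tfr2 (0.25 ± 0.09, adjusted p = 0.031, lost in 4 of 12 fits without 1 library, adjusted p up to 0.1) were higher. Of 28 genes of glucose metabolism, 4 were higher and 2 lower (0 and 6 with library totals). Ppargc1a, a coactivator of gluconeogenesis, had 8.52, 10.3 and 16.5 CPM in males and 21.5, 27.3 and 41.4 CPM in females (-1.43 ± 0.26, adjusted p = 2.7e-05), and Mpc1, of the mitochondrial pyruvate carrier, was also lower (-0.61 ± 0.08, adjusted p = 5.9e-08). Gcgr, the glucagon receptor (0.40 ± 0.09, adjusted p = 0.00088), Pygl (0.46 ± 0.13, adjusted p = 0.0074), Pfkl (0.40 ± 0.12, adjusted p = 0.011) and Pklr (0.76 ± 0.23, adjusted p = 0.015, adjusted p = 0.081 without male replicate 1) were higher under TMM. Of 21 circadian genes, 2 were higher, Bhlhe41 with 0.946, 1.95 and 3.04 CPM in males and 0.191, 0.477 and 0.832 CPM in females (2.01 ± 0.47, adjusted p = 0.0011) and Tspan4 (0.63 ± 0.20, adjusted p = 0.016, adjusted p = 0.064 without male replicate 1).

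**Figure D3:**
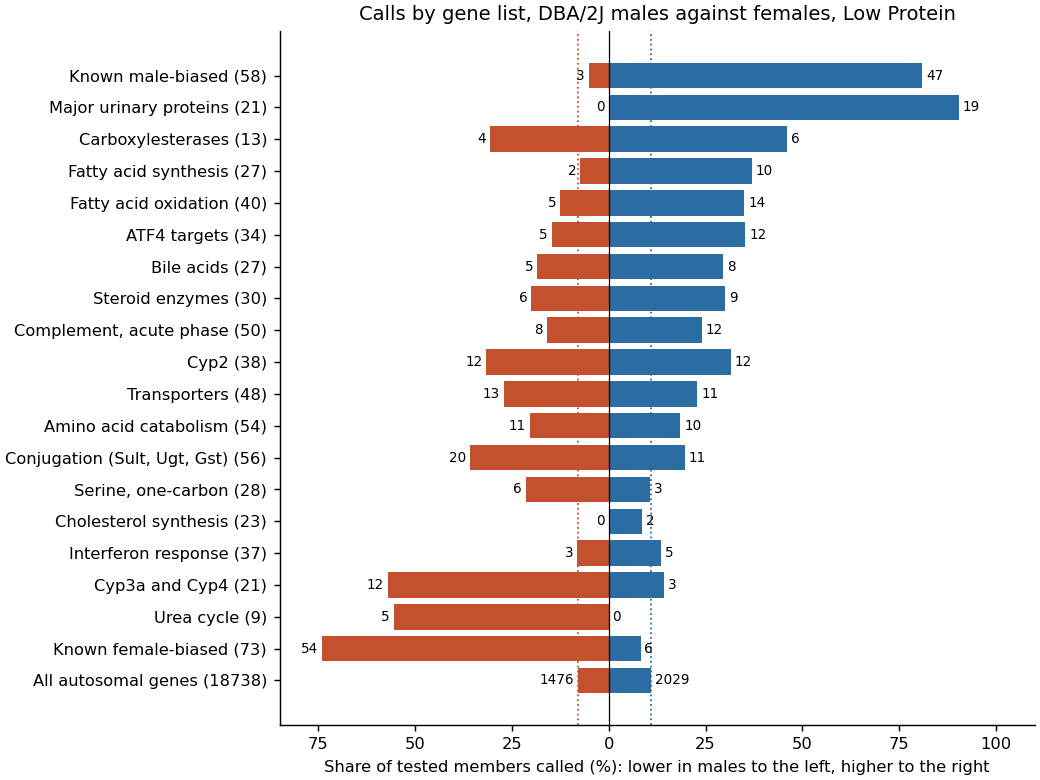
Percent of the tested genes of each of 19 gene lists, and of all autosomal genes at the foot, that were called higher (bars to the right) or lower (bars to the left) in males of the Low Protein DBA/2J livers. Dotted lines mark the share over all autosomal genes, 10.8% higher and 7.88% lower; the male-biased and Mup lists lie far above the first and the female-biased list far above the second.

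Markers of other cells of the liver were counted from lists. In bulk tissue fewer cells of a type and less RNA per cell cannot be told apart. None of 20 macrophage markers was called, and none of 2 neutrophil or 3 adipocyte markers. Of 20 stellate cell and matrix genes, 4 collagens were higher in males and none was lower. Col4a1 had 35.9, 46.5 and 51.8 CPM in males and 25.4, 29.4 and 34.7 CPM in females (0.60 ± 0.14, adjusted p = 0.00073), and Col3a1 had 14.2, 21.6 and 28.3 CPM in males and 7.74, 10.7 and 13.9 CPM in females (0.94 ± 0.27, adjusted p = 0.0082). Col4a2 (0.69 ± 0.17, adjusted p = 0.0018) did not overlap either, while Col1a1 (1.24 ± 0.44, adjusted p = 0.039) lost its call in 7 of 12 fits without 1 library (adjusted p up to 0.14). Of 17 T and NK cell markers, 5 were lower and 1, Cd4, was higher in males. Cd4 had 1.58, 2.39 and 2.81 CPM in males and 0.504, 0.844 and 1.25 CPM in females (1.36 ± 0.24, adjusted p = 1.4e-05), without overlap. The lower T cell markers, Cd8a, Cd3g, Cd3e, Trbc2 and Ccl5, had medians of 0.0829 to 0.168 CPM in males and 0.273 to 0.535 CPM in females, and every one but Trbc2 (-1.41 ± 0.40, adjusted p = 0.0075) lost its call without at least 1 library, with adjusted p up to 0.1, 0.067, 0.097 and 0.18 in the order named. Of 15 B cell markers, 3 were lower, among them Ighd (-1.53 ± 0.46, adjusted p = 0.012) and Cd79a (-1.41 ± 0.50, adjusted p = 0.038, lost in 7 of 12 fits, up to 0.1).

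Summed levels were set against each other by an exact 2-sided permutation test over the 12 libraries, whose smallest possible p is 0.00216, with adjustment over 11 marker lists. Of these, 4 passed and 7 did not. The B cell sum was 8.45 to 12.3 CPM in males and 10.3 to 23.2 CPM in females (adjusted p = 0.0238). The erythroid sum was 180 to 325 CPM in males and 51.1 to 114 CPM in females (adjusted p = 0.0119). It includes Alas2, an X-linked enzyme of haem synthesis, with 96.4 to 145 CPM in males and 5.74 to 10.0 CPM in females. Without Alas2 the sum of the other 8 erythroid genes was 72.2 to 180.2 CPM in males and 44.6 to 105 CPM in females (exact permutation p = 0.026, unadjusted). Slc4a1, the red cell anion exchanger, did not exceed 0.335 CPM in any of the 12 livers. Hba-a1 had 17.3, 30.2 and 67.6 CPM in males and 9.73, 12.1 and 21.1 CPM in females (1.38 ± 0.32, adjusted p = 0.00082), and Hbb-bt was called with an adjusted p of 0.032, lost in 6 of 12 fits without 1 library (up to 0.12). The globin copies share reads. The adipocyte sum was 6.53 to 19.4 CPM in males and 3.26 to 6.76 CPM in females (adjusted p = 0.0159), with Retn and Lep at 0 in all 12. The sum of acinar and muscle genes was 15.1 to 30.2 CPM in males and 5.69 to 14.2 CPM in females (adjusted p = 0.0119), nearly all of it Cela1, while Prss1 and Cela2a were at 0 in all 12. The T and NK cell sum, at 3.50 to 6.22 CPM in males and 4.22 to 7.90 CPM in females, did not pass (adjusted p = 0.22), nor did the stellate and matrix sum, at 679 to 819 CPM in males and 629.8 to 712 CPM in females (adjusted p = 0.167). The other sums that did not pass were those of macrophage (adjusted p = 0.307), neutrophil (0.374), endothelial (0.155), cholangiocyte (0.133) and hepatocyte genes (0.167). The part of blood or fat in the differences above was not tested.

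Of 37 interferon-induced genes, 5 were higher and 3 lower in males, against 10.8% and 7.88% of all autosomal genes (0 and 3 with library totals, 5 and 0 when the compared groups were fitted alone). The 3 lower were guanylate-binding proteins, Gbp2 with 4.98, 5.74 and 11.7 CPM in males and 4.9, 10.7 and 38 CPM in females (-1.06 ± 0.31, adjusted p = 0.011), Gbp3 (-1.04 ± 0.31, adjusted p = 0.011) and Gbp7 (-0.74 ± 0.27, adjusted p = 0.041). All 3 lost their calls without female replicate 5 (adjusted p of 0.29, 0.23 and 0.70). The 5 higher were Bst2 (0.54 ± 0.16, adjusted p = 0.013), Ifi35 (0.27 ± 0.09, adjusted p = 0.019), Irf7 (0.61 ± 0.20, adjusted p = 0.025), Dhx58 (0.46 ± 0.16, adjusted p = 0.036) and Mx2 (0.47 ± 0.16, adjusted p = 0.037), which lost their calls in 1, 3, 5, 6 and 7 of the 12 fits without 1 library. Of 21 antigen presentation genes, B2m (0.34 ± 0.09, adjusted p = 0.0024) and H2-Q10 (0.27 ± 0.09, adjusted p = 0.026) were higher, H2-Q10 losing its call in 4 of 12 fits (adjusted p up to 0.17). Neither was called in a fit of the compared groups alone (adjusted p = 0.058 for B2m and 0.13 for H2-Q10) or with library totals (0.21 and 0.51), where the list had 0 higher and 1 lower.

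Whether the sex difference depended on the diet was tested as an interaction within DBA/2J. No autosomal gene passed the test on Low Protein against Control (0% of 18738) or against Medium Protein (0%). At an unadjusted p below 0.05 there were 1435 genes against Control and 971 against Medium Protein. By chance alone a share of about 0.05 of the 18738 genes would fall there. With limma-voom 0 were called in both, and DESeq2 called 8 and 6. The smallest adjusted p was 0.128 against Control and 0.451 against Medium Protein. Each diet taken alone gave 3402 sex-different genes on Control (18.2%; 1960 or 10.5% higher and 1442 or 7.7% lower in males), 2451 on Medium Protein (13.1%; 1376 or 7.34% higher and 1075 or 5.74% lower) and 3505 on Low Protein. Without the Medium Protein female with male transcripts, Medium Protein gave 1990 genes and the interaction still none. No animal is shared between diets. Of the genes higher in males on Low Protein, 1131 were also called higher on Control (55.7% of the Low Protein genes and 57.7% of the Control genes), and 774 of those lower in males (52.4% and 53.7%), while 2 were called in opposite directions. With Medium Protein the shared genes were 964 higher (47.5% of the Low Protein and 70.1% of the Medium Protein genes) and 665 lower (45.1% and 61.9%), with 0 opposite. Without that Medium Protein female they were 829 higher (40.9% and 75.5%) and 592 lower (40.1% and 66.9%), with 0 opposite, over the genes tested in both fits.

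Cyp2d9, Cux2 and Cyp7b1 were called in the same direction on each of the 3 diets. Cyp2d9 differed by 4.20 ± 0.27 on Control, 4.21 ± 0.27 on Medium Protein and 4.03 on Low Protein. Cux2 differed by -6.47 ± 0.72, -5.30 ± 0.66 and -5.63, and Cyp7b1 by 4.60 ± 0.38, 4.36 ± 0.37 and 3.78, in the same order of diets. Without the Medium Protein female with male transcripts the Medium Protein values were 4.19 ± 0.29 for Cyp2d9, -5.39 ± 0.67 for Cux2 and 4.38 ± 0.41 for Cyp7b1. The differences of Asl, Ass1 and Cth lay nearer 0 on Control and Medium Protein than on Low Protein, without an interaction that passed. Asl differed by -0.58 ± 0.24 on Control, -0.54 ± 0.24 on Medium Protein and -1.20 on Low Protein, with an interaction against Control of -0.62 ± 0.34 (adjusted p = 0.7). Ass1 differed by -0.25 ± 0.21, -0.19 ± 0.21 and -0.94 (interaction -0.69 ± 0.30, adjusted p = 0.56), and Cth by -0.49 ± 0.21, -0.39 ± 0.21 and -1.26 (interaction -0.77 ± 0.30, adjusted p = 0.52). Without that female the Medium Protein values were -0.56 ± 0.26 for Asl, -0.21 ± 0.22 for Ass1 and -0.40 ± 0.22 for Cth. In the urea cycle 1 gene was called lower in males on Control, 0 on Medium Protein (with or without that female) and 5 on Low Protein, and no interaction of these genes passed the test. Fgf21 differed by 1.33 ± 0.39 on Control, 0.40 ± 0.38 on Medium Protein and 1.64 on Low Protein, and Plin2 by 0.66 ± 0.18, 0.33 ± 0.18 and 1.05, also without an interaction that passed (adjusted p = 0.96 and 0.77 against Control). On Medium Protein without that female Fgf21 differed by 0.42 ± 0.40 and Plin2 by 0.39 ± 0.19.

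**Figure D4:**
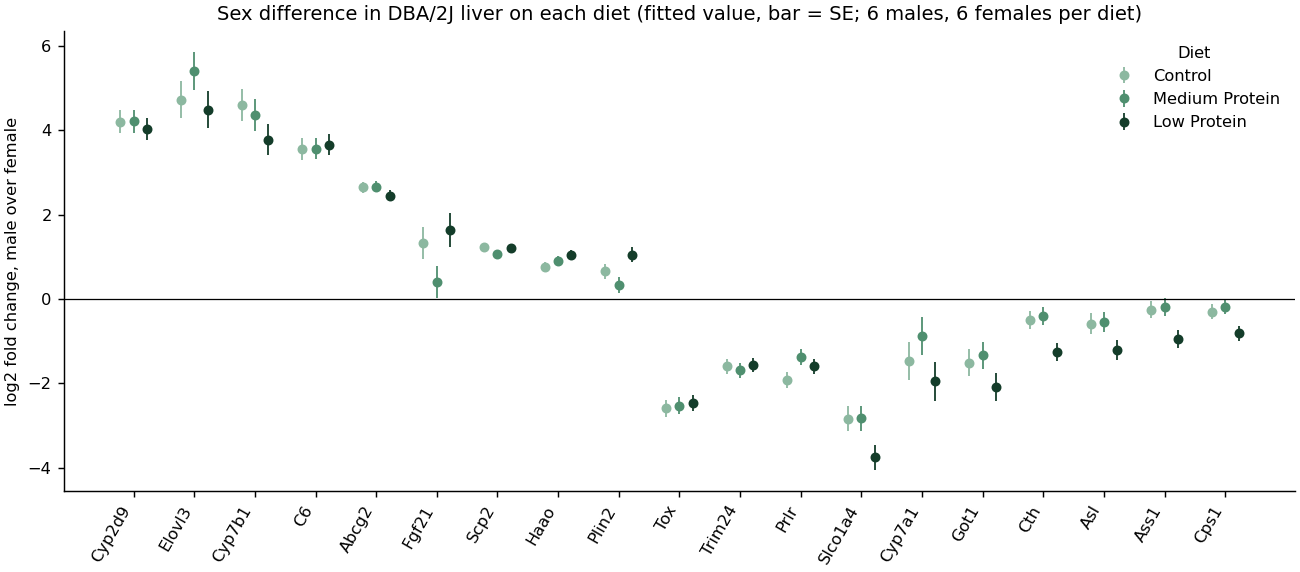
Log2 difference between DBA/2J males and females (male minus female, ± SE) of 19 genes on the Control, Medium Protein and Low Protein diets, 6 animals of each sex per diet, the Medium Protein female with male transcripts included. Cyp2d9, Elovl3 and C6 have large positive differences on every diet, while Asl, Ass1 and Cps1 lie nearer 0 on Control and Medium Protein than on Low Protein; no sex by diet interaction passed the test.

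The sex difference was also set against that of C57BL/6J mice on the same Low Protein diet. There 5274 autosomal genes differed between the sexes (28.1%), 2720 higher in males (14.5%) and 2554 lower (13.6%). Some of these C57BL/6J libraries stood apart. Male replicate 1 had 31892 genes with a count, against 23700 to 25196 in the other males, and the highest mitochondrial share of all 72 libraries. Female replicate 6 had 29413 genes with a count and 4.34% ribosomal-like counts, and male replicate 2 had 2.78%. In female replicate 1 Alb, albumin, held 2.36% of counts, against 5.21 to 5.99% in the other females. The sex difference itself differed between the strains in 1845 genes (9.85%), more positive in DBA/2J in 935 (4.99%) and more negative in 910 (4.86%). Of these 1845, 545 were called between the sexes in DBA/2J alone, 969 in C57BL/6J alone, 126 in both with the same sign, 101 in both with opposite signs and 104 in neither. Genes higher in males in both strains numbered 845 (41.6% of the DBA/2J genes and 31.1% of the C57BL/6J genes), and genes lower in both 634 (43.0% and 24.8%). Without libraries over 2% ribosomal-like counts, in either strain, 4576 genes differed between the sexes in C57BL/6J. In that fit the sex difference differed between the strains in 1674 genes, 1404 of them among the 1845. The effect of C57BL/6J male replicate 1 on these counts was not tested.

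Cyp2c40 gave the smallest adjusted p of the strain difference. It had 0.101, 0.25 and 1.1 CPM in DBA/2J males and 366, 385 and 513 CPM in DBA/2J females, while C57BL/6J males had 5.44 to 29.3 CPM and C57BL/6J females 61 to 182 CPM. The sex difference was -10.13 in DBA/2J and -3.39 ± 0.37 in C57BL/6J (sex by strain -6.73 ± 0.60, adjusted p = 1.5e-12), with near-copies in the Cyp2c cluster. Cyp39a1 differed by -4.08 in DBA/2J and -0.15 ± 0.27 in C57BL/6J, where males had 23.5 to 51 CPM and females 18.7 to 53.4 CPM (sex by strain adjusted p = 8.8e-10). Slc39a4 was higher in DBA/2J males and lower in C57BL/6J males, with differences of 0.64 and -1.72 ± 0.19 (adjusted p = 1e-08). Its DBA/2J call was lost with library totals (0.46, adjusted p = 0.0596). Lyrm2, a mitochondrial LYR motif protein, also changed sign, with 0.65 in DBA/2J and -0.74 ± 0.13 in C57BL/6J (adjusted p = 1.2e-07). Itpr1, a calcium channel of the endoplasmic reticulum, had -0.26 and 0.61 ± 0.08 (adjusted p = 1.4e-07), its DBA/2J call being lost in 3 of 12 fits without 1 library.

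Serpina1e, an alpha-1-antitrypsin copy, had 343, 377 and 399 CPM in DBA/2J males and 343, 391 and 442 CPM in DBA/2J females, whereas C57BL/6J males had 798 to 3214 CPM and C57BL/6J females 6.12 to 71.5 CPM (sex by strain -6.12 ± 0.78, adjusted p = 1.2e-07). Mup11 showed a like pattern, with a sex difference of 1.09 in DBA/2J and 8.33 ± 0.82 in C57BL/6J (adjusted p = 1.6e-07). Both belong to families of near-identical copies, and strain sequence differences can move reads between copies. Of the 21 Mup genes, the sex difference was more negative in DBA/2J in 11 and more positive in 1. Trim24 differed by -1.56 in DBA/2J and -0.13 ± 0.17 in C57BL/6J (adjusted p = 3.7e-05), and Tox by -2.46 and -1.36 ± 0.18 (adjusted p = 0.003). Abcg2 differed by 2.45 and 1.31 ± 0.12 (adjusted p = 5.3e-06), and Scp2 by 1.22 and 0.53 ± 0.08 (adjusted p = 4e-05). For Hamp2 the differences were -1.87 and -6.31 ± 0.60 (adjusted p = 2.6e-05).

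Cholesterol synthesis genes were called higher in males in 2 of 23 in DBA/2J and in 20 of 23 in C57BL/6J, and 8 of 23 had a more negative difference in DBA/2J. Genes of amino acid breakdown were called lower in males in 11 of 54 in DBA/2J and 22 of 54 in C57BL/6J, with a more positive difference in DBA/2J in 8. Stellate and matrix genes were called higher in 4 and lower in 0 of 20 in DBA/2J, against 1 and 6 in C57BL/6J, with a more positive difference in DBA/2J in 7. Col3a1 differed by 0.94 in DBA/2J and -0.48 ± 0.26 in C57BL/6J (adjusted p = 0.0093). In the urea cycle 5 of 9 genes were called lower in males in DBA/2J and 5 of 9 in C57BL/6J, where 1 was higher, and 1 of the 9 had a strain difference that passed the test, Slc25a15 at -0.48 in DBA/2J and -1.0 ± 0.12 in C57BL/6J (adjusted p = 0.029).

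**Figure D5:**
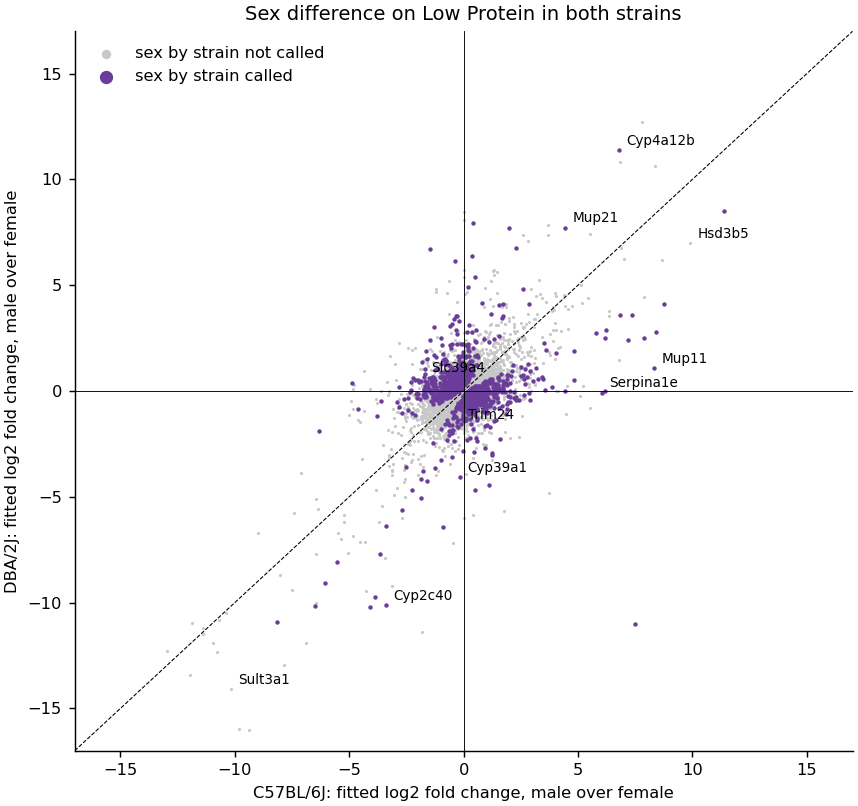
Log2 difference between males and females on Low Protein in DBA/2J (y axis) and in C57BL/6J (x axis), a point per autosomal gene, with genes whose sex by strain test passed in purple. Most large differences share their sign in both strains, while Cyp2c40 and Cyp39a1 lie low on the DBA/2J axis and Serpina1e and Mup11 far to the right on the C57BL/6J axis.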

How the data were processed

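Liver mRNA of 72 mice was sequenced from stranded polyA libraries spread over 2 lanes, per the labels' protocols. The deposited values are expected counts per gene from RSEM, and RSEM, edgeR, limma and R 3.4.3 are named, per the submitters' processing notes. The aligner, the genome build and the annotation were not given in the sources used here. Of the deposited values 11.6% were not whole, and all were rounded. Samples were matched to columns through their label codes. Of 51912 gene IDs, 51719 matched an Ensembl ID of GENCODE M21, which gave the chromosome, and 193 did not.

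Genes were filtered with edgeR's filterByExpr over the 12 groups, scaled by TMM and tested with edgeR's quasi-likelihood test (edgeR 4.0.16 in R 4.3.3), in 1 fit of all 72 libraries, with contrasts for sex, sex by diet and sex by strain. P-values were adjusted by Benjamini-Hochberg over all 19362 genes, and genes with an adjusted p below 0.05 are called. Libraries held 26.9 to 38.4 M counts. A self-test on simulated counts ran after the main fit. Alternatives used limma 3.58.1 (voom), DESeq2 1.42.0, other scalings, other filters and fits without each library in turn. The labels name separate animals but no cultures, litters or days. P-values set each difference against the spread between animals of a group, as estimated over all 72 libraries.

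Members and gene lists were chosen with earlier results of these data known. Named genes were called autosomal genes whose mean log2 CPM was 0 or more: the 12 highest and 12 lowest fold changes, the 6 smallest p of each interaction, and from each list up to 4 called and 2 uncalled members with the smallest p. Other members, named to complete a small count, were chosen after their values were seen. Some items are not reported here. In this bulk tissue, a fold against a group with no count was taken against 3 counts over its 6 libraries, and covers counting error only.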

Additional observations from a re-analysis of the deposited data

Results flagged for a closer look

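In 12 of the 321 sets of 6 animals examined (males or females, 165 named genes), the highest or lowest animal stood far from the other 5 (Dixon's test on log2 levels); chance alone does so in about 1 in 20 sets. Mup15 was at 0.406 CPM in female replicate 4 and at 0 in the other females. Gvin1 was at 4.71 CPM in male replicate 1 and between 0 and 0.913 CPM in the other males. Cyp2c40 was at 1.1 CPM in male replicate 5 and between 0.101 and 0.347 CPM in the other males. Tox was at 2.01 CPM in male replicate 5 and between 2.96 and 3.54 CPM in the other males. Cyp3a44 was at 2.59 CPM in male replicate 3 and between 0.264 and 0.74 CPM in the other males. Slc17a8 was at 61 CPM in male replicate 6 and between 88.5 and 110.3 CPM in the other males. Vldlr was at 2.99 CPM in female replicate 4 and between 8.73 and 14.9 CPM in the other females. Gbp3 was at 50.2 CPM in female replicate 5 and between 10.1 and 17 CPM in the other females. Ppargc1a was at 16.5 CPM in male replicate 6 and between 8.52 and 10.7 CPM in the other males. Hamp2 was at 350.1 CPM in female replicate 1 and between 606 and 812 CPM in the other females. Ugt2b37 was at 30.2 CPM in female replicate 4 and between 4.97 and 8.58 CPM in the other females. Gbp7 was at 139 CPM in female replicate 5 and between 24.7 and 43.7 CPM in the other females.

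The sex difference differed between DBA/2J and C57BL/6J on Low Protein in 1845 autosomal genes. Among named genes called with the same sign in both strains, the sex difference in DBA/2J minus that in C57BL/6J was, on the log2 scale and with an adjusted p below 0.05, Cyp2c40 -6.73, Cux2 -2.94, Mup7 -2.88, Cyp2a4 -2.76, Slc22a26 -2.57, Lepr -2.36, Tox -1.11 and Prlr -0.95, more negative in DBA/2J. In the other direction with the same sign in both, the values were Taldo1 0.36, Cat 0.51, Slc25a15 0.52, Cyp4v3 0.63, Scp2 0.68, Abcg2 1.14, Alas2 1.74, Hsd3b2 1.74, Mup21 3.27, Hamp2 4.44 and Cyp4a12b 4.59, more positive in DBA/2J. For named genes called with opposite signs in the 2 strains the same quantity was Ugt2b37 -3.87, Acot4 -1.74 and Itpr1 -0.87, more negative in DBA/2J. Opposite in sign and turned the other way were Apoc2 0.68, Dmgdh 0.78, Dhx58 0.94, Lyrm2 1.38 and Slc39a4 2.36, more positive in DBA/2J. For those called between the sexes in DBA/2J alone it was Cyp39a1 -3.93, Acot3 -2.48, Cyp4a31 -1.59, Trim24 -1.43, Cbr1 -1.25, Nqo1 -1.15, Nr1i3 -0.85, Ces2a -0.74, Apom -0.56, Nr5a2 -0.55, Fads1 -0.50 and Lcat -0.27, more negative in DBA/2J. Also called in DBA/2J alone were B2m 0.44, Gpam 0.48, Amacr 0.63, Col4a1 0.67, Aadat 0.76, Apoe 0.76, Haao 0.92, Plin2 1.21, Cd4 1.40, Col3a1 1.41, Col1a1 1.88 and Gvin1 7.49, more positive in DBA/2J. For those called in C57BL/6J alone it was Mup11 -7.24, Serpina1e -6.12 and Mup12 -5.38, more negative in DBA/2J. Some of these classes rest on unsteady DBA/2J calls. Of the genes opposite in sign, Apoc2 lost its call in 8 of 12 fits without 1 library, Dmgdh and Dhx58 in 6, Acot4 in 4 and Itpr1 in 3. Slc39a4, Ugt2b37 and Lyrm2 kept theirs in all 12, though Slc39a4 lost it with library totals (adjusted p = 0.0596). Of those called in DBA/2J alone, Fads1 lost its call in 10 fits, Col1a1 in 7, Nr1i3 in 2 and Gvin1 in 1. Alas2 is X-linked and is not among the 1845. No explanation was weighed.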

How the results depend on the processing

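No named gene with a call changed direction between the sexes under any of the settings run. When counts were scaled by library totals, the numbers of autosomal genes higher and lower in males became 871 and 3692 in DBA/2J on Low Protein, 535 and 6489 on Control and 510 and 5732 on Medium Protein; 1568 were higher and 3507 lower in C57BL/6J, and 433 sex by strain differences were more positive and 1013 more negative in DBA/2J. Against a fold of at least 1.2 the counts were 765 and 529 on Low Protein, 592 and 522 on Control, 503 and 415 on Medium Protein, 1098 and 1086 in C57BL/6J, and 261 and 230 for sex by strain. Without a filter on low counts sex by strain gave 576 and 581. DESeq2 called 7 sex by diet differences more positive and 1 more negative against Control, and 4 and 2 against Medium Protein. Leaving out 1 of the 12 Low Protein DBA/2J libraries at a time gave 1587 to 2016 genes higher and 1196 to 1423 lower in males. The same fits gave 708 to 933 and 766 to 904 for sex by strain, where no C57BL/6J library was left out singly. For sex by diet they gave 0 to 1, the 1 against Control without female replicate 1. Of 245 genes followed one by one, 8 to 23 lost their call without any 1 of the 12 libraries, 23 without male replicate 1 and 18 without female replicate 5. Without the libraries over 2% ribosomal-like counts, a setting added after seeing the data, 1753 were higher and 1302 lower. Of the 3505 genes, 2347 were also called with library totals, 2625 in a fit of the 2 groups alone and 3421 with RLE factors. The cause of these changes was not tested, except that a fold of 1.2 is a stricter test by construction. No paired analysis was possible because the replicate numbers were given in accession order and pair no animals. The 6 animals per sex and the depth limit what can be said of genes under about 1 CPM.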

Other observations

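The called genes differed in base composition and type. The longest transcripts of genes higher in males had a median GC content of 52.1% and those of genes lower in males 47.1%, against 48.5% for genes not called. Among genes that differed by at least 2-fold the medians were 49.2% for higher and 46.8% for lower. The median transcript length was 2731 bases for genes higher and 3341 bases for genes lower in males, against 2839 bases for genes not called. Among genes that differed by at least 2-fold the median lengths were close, 2092 bases for higher and 2152 bases for lower. Protein-coding genes were more often higher than lower in males, 1823 against 1131 of 13757. Genes of the TEC class, which await experimental evidence, were higher in 19 and lower in 97 of 1300. Antisense genes were higher in 32 and lower in 55 of 928. Over all autosomal genes 10.8% were higher and 7.88% lower. The TEC and antisense classes were thus short of higher genes, without an excess of lower ones. Whether composition or library properties account for part of the small differences was not tested.

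The share of called genes varied between autosomes. On chromosome 4, which holds the Mup and Cyp4a clusters, 171 of 1154 genes were higher in males (14.8%) and 83 lower (7.19%). Chromosome 4 was not alone in this, the share higher being 15.1% on chromosome 15, 15.0% on 19, 14.0% on 17 and 13.9% on 8. On chromosome 3 the direction was the other way, with 80 of 1063 genes higher (7.53%) and 108 lower (10.2%). Chromosomes 1 (6.81% higher, 8.64% lower) and 12 (7.44% and 8.62%) also had more lower than higher genes. No test was run on these shares.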
